A study of Mus musculus with 9 samples.

Results

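Mitochondrial fatty acid oxidation is represented here by 39 genes, chosen by symbol for their part in activating fatty acids, carrying them into mitochondria and breaking them down there. All 39 had a row in a table of 24013 gene symbols, and 36 of them were among the 11542 genes expressed highly enough to test, which means at least 1 RPKM (reads per kilobase of exon, scaled to sequencing depth) in at least 3 of the 9 libraries. RNA sequencing had been carried out on adipocytes that the labels call ingSVF-derived, which were grown from stromal vascular cells of inguinal fat. The donors were C57BL6/J mice (B6), 129X1/SvJ mice (129) and mice labelled F1, with 3 libraries each, all taken on day 7. Every group had the same treatment: from confluence, 48 hours in 10% FBS with rosiglitazone at 1 µM, T3 at 1 nM, insulin at 850 nM, dexamethasone at 1 µM, indomethacin at 125 nM and isobutylmethylxanthine at 0.5 mM. The last 3 of these agents were then left out. No group lacked rosiglitazone, an agonist of the adipocyte regulator PPARγ, and none was left undifferentiated. The labels do not give the age of the mice, the direction of the F1 cross, or whether replicates were independent mice or dishes. The p-values therefore measure the spread between these libraries, which may be technical.

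As background, a long-chain fatty acid is first joined to coenzyme A by an acyl-CoA synthetase, then passed to carnitine by carnitine palmitoyltransferase 1 at the outer mitochondrial membrane and returned to coenzyme A by carnitine palmitoyltransferase 2 inside. Each turn of the cycle then takes a dehydrogenation, a hydration, another dehydrogenation and a thiolysis, and electrons from the first step pass through electron-transfer flavoprotein to the respiratory chain. Brown and beige adipocytes burn fatty acids by this route to make heat.

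The libraries held 19130022 to 28473083 reads in the B6 and 129 groups and 39686986 to 53410947 in the F1 group, so every F1 library was deeper. Counts of reads behind the members ranged from 7 for Acsl6 to 72045 for Hadhb in a single library. Libraries of a group correlated at 0.994 to 0.9978 across tested genes (Pearson's r on the log2 scale), and libraries of different groups at 0.9754 to 0.9909. The summed level of a list of 11 mature adipocyte markers ran from 30500 to 34600 RPKM across B6, from 34600 to 37000 across 129 and from 38800 to 40900 across F1, so the labelled cell type carried its markers in all 9 libraries. Summed thermogenic markers were at 385 to 402, 440 to 475 and 550 to 585 RPKM, and summed progenitor and fibroblast markers at 1380 to 1590, 1990 to 2150 and 1440 to 1660 RPKM, in the same order. Of the progenitor and fibroblast markers, 6 of 9 tested were higher in 129 than in B6 and 1 lower. In F1, 7 of these 9 were below the parental midpoint and 0 above. Of thermogenic markers, 5 of 8 were above that midpoint in F1 and 1 below. Of adipocyte markers, 3 of 11 were above and 1 below, and of smooth muscle markers 5 of 6 were below. Macrophage and endothelial markers had no such call. Among all tested genes, 15.9% were higher and 21.7% lower in 129 than in B6. Against the midpoint, 8.35% were higher and 14.8% lower in F1. Smooth muscle markers summed to 130 to 145, 129 to 138 and 101 to 108 RPKM, macrophage markers to 45.9 to 58.5, 21.3 to 48.2 and 39.1 to 59.1, and mast cell markers to 2.4 to 2.78, 54.2 to 62.6 and 25.5 to 31.8. Endothelial markers summed to 5.52 to 6.77, 3.03 to 3.73 and 4.47 to 4.79 RPKM. Between 129 and B6, 3 of 11 adipocyte markers were higher and 2 lower, 2 of 8 thermogenic markers were higher and 2 lower, and lower only were 4 of 6 smooth muscle, 3 of 8 macrophage and 2 of 2 endothelial markers. Of the 7 mast cell markers, 5 were under 1 RPKM in every library. The other 2 were tested, and 1 was higher and 1 lower in 129 than in B6. The higher sum of this list in 129 therefore rests on 1 gene. Relative to the parental midpoint, 1 of these 2 was higher in F1 and 0 lower. Tpsb2 and Ms4a2 of the mast cell list, Cd3g of the lymphocyte list and Myod1 and Ckm of the skeletal muscle list were at 0. The part of these cell types in the member results was not tested. In bulk RNA, fewer cells of a type and less RNA per cell cannot be told apart. Any loss of 129 reads that differ from the mm9 reference, which is of the C57BL/6J strain, was not measured.

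The members took 1.05% to 1.24% of all reads in a library. Per length, Acadm, Acadvl and Hadhb held the highest B6 means, at 572 ± 41.7, 535 ± 47.0 and 534 ± 17.9 RPKM (SD, n = 3), and these 3 do not differ beyond their spread. In 129 the order opened with Hadhb at 575 ± 18.9, Acadvl at 458 ± 17.4 and Acaa2 at 439 ± 29.4, of which the last pair overlap. In F1 it opened with Hadhb at 667 ± 16.9, Acadvl at 541 ± 14.3 and Acaa2 at 522 ± 24.7, and again the last pair overlap. Cpt1a, the usual rate-setting entry enzyme outside muscle and brown fat, stood much lower, at 12.5 ± 0.754 RPKM in B6. Acot1 and Bdh1 were the lowest tested members, at 1.51 ± 0.0896 and 0.928 ± 0.186 RPKM in B6. The 3 members not tested were Cpt1b (the muscle and brown-fat form of the entry enzyme), at 0.465 to 1.12 RPKM, Acot11 at 0.409 to 0.756 and Acsl6 at 0.0656 to 0.178. Cpt1b shares 94.8% of its exon bases with a same-strand readthrough row, so its level is uncertain.

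**Figure D1:**
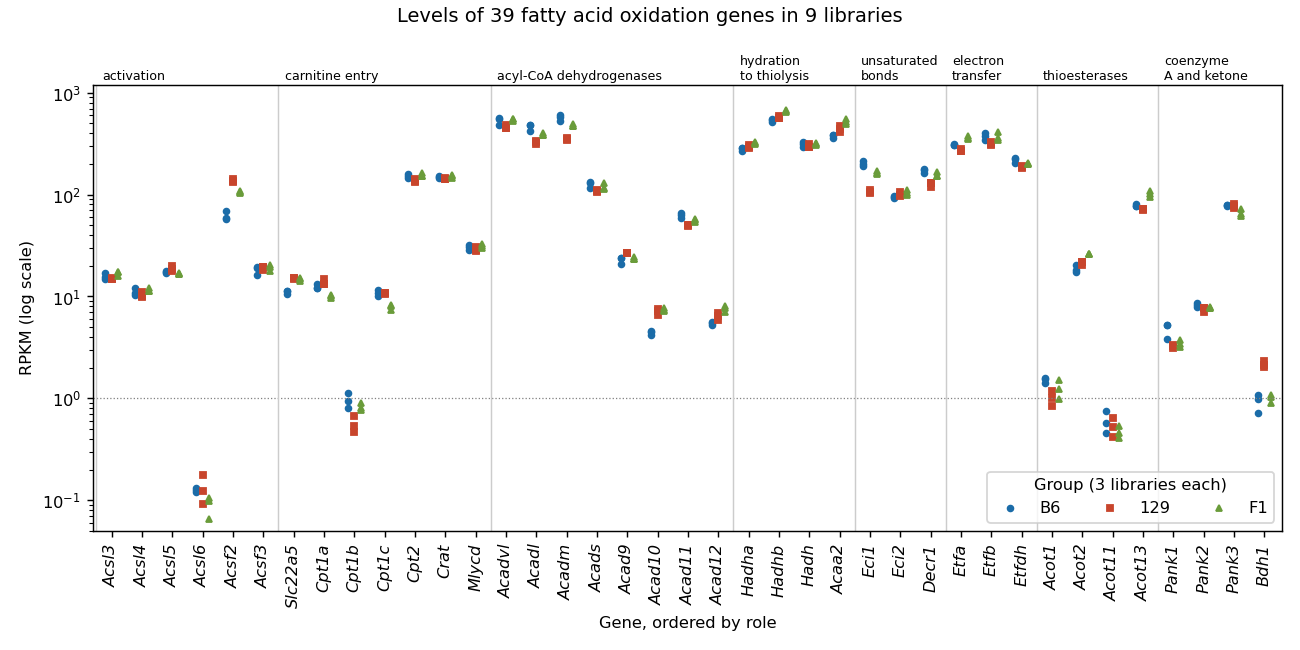
RPKM of the members in each of the 9 libraries, on a log axis, with genes grouped by role and groups marked by colour. Levels run from under 1 RPKM for Acsl6 and Acot11 in every library to the top of the axis for Hadhb, whose 9 libraries lie between 514 and 684.

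The sequence before the gene start is shown for 3 abundant members that differed between the strains (Eci1, Acadm, Acsf2), for Cpt1a, and for the shared stretch of Hadha and Hadhb. RefSeq promoter windows of 300 bases on GRCm38.p6, the C57BL/6J reference, matched 33 of the 39 members; Cpt1b, Crat, Acad9, Acaa2, Decr1 and Acot13 had none. Each printed run is the 250 bases before the start, on the gene's strand. In Acadm and Cpt1a, capitals mark AGGTCA, part of the sites of nuclear receptors such as PPAR and ERR proteins. It is read here from the opposite strand as TGACCT, and alone it is not a complete PPAR site. In Cpt1a, capitals also mark TTGGCA. In Hadhb they mark the 228 bases that the windows of Hadhb and Hadha share.
Eci1, chr17:24426433-24426682, plus strand: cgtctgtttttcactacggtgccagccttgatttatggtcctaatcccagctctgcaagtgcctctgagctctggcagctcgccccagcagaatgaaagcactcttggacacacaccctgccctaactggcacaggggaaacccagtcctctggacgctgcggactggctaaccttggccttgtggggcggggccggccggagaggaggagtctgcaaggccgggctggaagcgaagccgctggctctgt
Acadm, chr3:153944644-153944893, minus strand: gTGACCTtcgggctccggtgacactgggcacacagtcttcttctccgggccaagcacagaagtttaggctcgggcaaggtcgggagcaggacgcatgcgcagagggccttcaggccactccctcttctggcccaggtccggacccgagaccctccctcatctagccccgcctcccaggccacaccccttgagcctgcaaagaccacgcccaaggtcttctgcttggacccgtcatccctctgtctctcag
Acsf2, chr11:94601787-94602036, minus strand: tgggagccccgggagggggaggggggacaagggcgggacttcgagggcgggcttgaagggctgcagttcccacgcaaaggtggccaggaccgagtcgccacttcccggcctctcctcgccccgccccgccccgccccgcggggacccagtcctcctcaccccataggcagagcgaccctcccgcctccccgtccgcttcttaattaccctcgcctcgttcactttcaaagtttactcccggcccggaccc
Cpt1a, chr19:3323051-3323300, plus strand: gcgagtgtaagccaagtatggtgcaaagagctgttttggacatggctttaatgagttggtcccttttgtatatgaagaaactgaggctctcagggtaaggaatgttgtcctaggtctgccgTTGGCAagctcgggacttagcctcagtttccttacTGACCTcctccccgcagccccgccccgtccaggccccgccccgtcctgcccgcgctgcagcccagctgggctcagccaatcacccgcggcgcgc
Hadhb, chr5:30155003-30155252, plus strand: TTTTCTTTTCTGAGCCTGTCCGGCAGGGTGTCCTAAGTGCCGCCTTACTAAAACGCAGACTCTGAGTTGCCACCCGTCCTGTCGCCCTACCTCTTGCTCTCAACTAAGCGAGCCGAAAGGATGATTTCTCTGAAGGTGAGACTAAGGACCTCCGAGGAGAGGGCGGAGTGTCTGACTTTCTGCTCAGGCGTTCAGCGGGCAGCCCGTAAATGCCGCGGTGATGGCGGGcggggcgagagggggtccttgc
On either strand, AGGTCA occurred in the windows of 5 members (Acadm, Acadvl, Acsl6, Cpt1a and Cpt1c), which is 15.2% of those matched, against 18.1% of all 27025 genes with a window. TTGGCA, part of the site of nuclear factor 1 proteins, also occurred in 5 members (Acot11, Cpt1a, Cpt2, Eci2 and Pank1), or 15.2%, against 16.1% of genes. TGACGTCA, the cyclic AMP response element, was in no member window and in those of 2.03% of genes, and TCAAGGTCA, an ERR site that contains AGGTCA, was in that of Acsl6 and in those of 0.466% of genes. These are matches of letters in a window and show no binding.

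The first comparison asked how the strains differ. Members of the same pathway went in both directions: in 129 relative to B6, long-, medium- and short-chain acyl-CoA dehydrogenases, the electron-transfer genes and 2 of the 3 enzymes for unsaturated bonds (Eci1 and Decr1) were lower, while Acsf2, Slc22a5, Acad10 and Bdh1 were higher. Of the lower ones, the dehydrogenases Acadvl and Acads and the electron-transfer gene Etfb lost their calls in 5, 7 and 6 of 15 alternative settings. Of 36 tested members, 8 were higher in 129 and 13 lower, and 15 did not pass (limma on log2(RPKM + 1), with Benjamini-Hochberg adjusted p under 0.05 over all 11542 genes). Among all tested genes 15.9% were higher and 21.7% lower. The median log2 difference of the members was -0.06, against -0.03 over all genes. Under another library scaling, the median of ratios, the members' split was 10 higher and 10 lower. All genes then went from 1834 higher and 2499 lower to 2184 and 2075. Leaving out 129 replicate 3 left 5 higher members, and 1568 higher among all genes. Leaving out B6 replicate 1, B6 replicate 3, 129 replicate 1 or 129 replicate 2 left 8 lower members each. Among all genes these fits left 1960, 2087, 2067 and 2043 lower, in that order. All 3 libraries of 129 lay above all 3 of B6 for 10 members (20.8% of all genes) and below them for 16 (29.0% of all genes). With 3 libraries against 3, the smallest p that an exact permutation test of 1 gene allows is 0.1, so no such test was used.

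**Figure D2:**
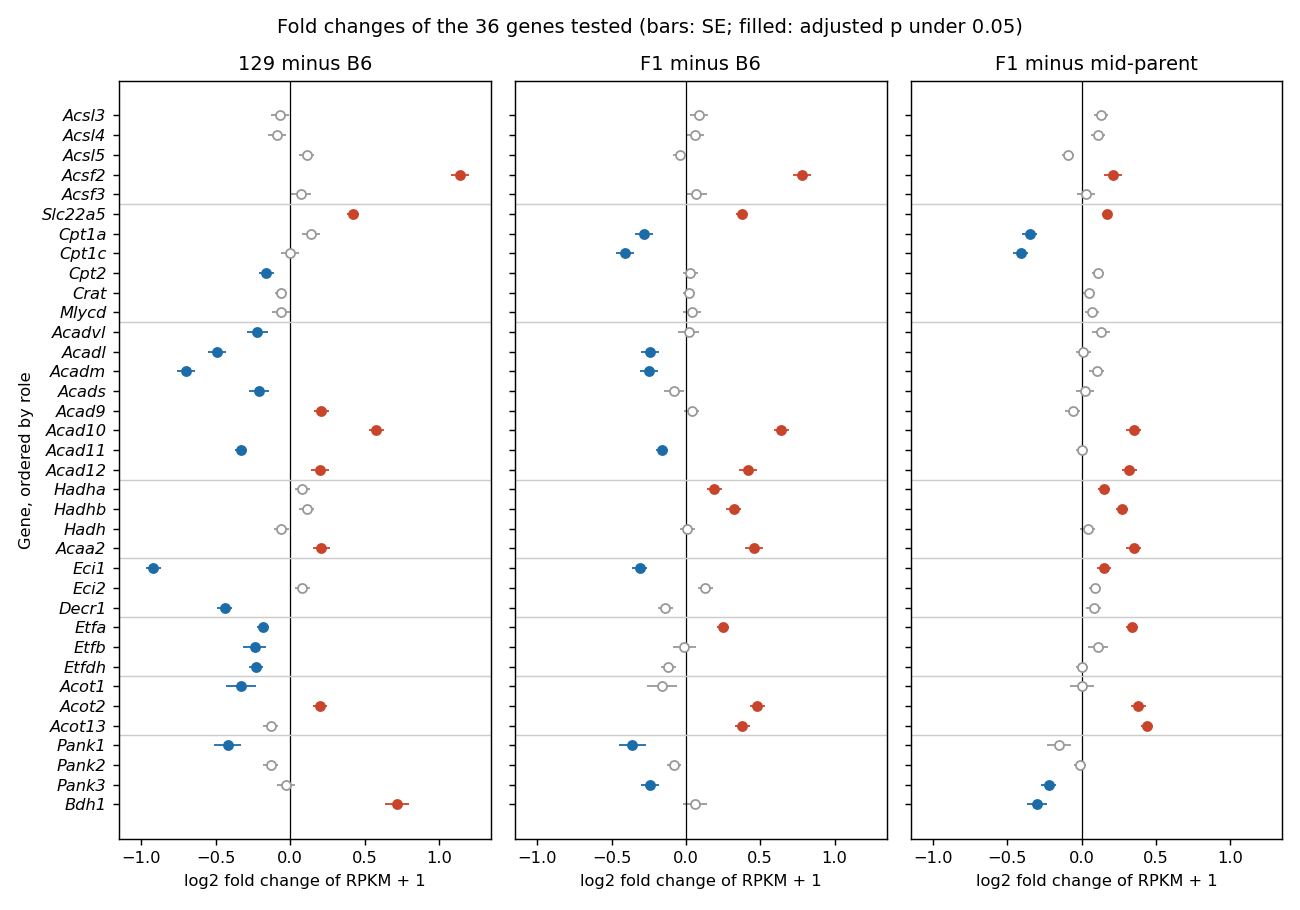
Log2 difference of each tested member on the log2(RPKM + 1) scale, with its standard error, for 129 minus B6, F1 minus B6 and F1 minus the mean of the parents; filled points passed the adjusted p of 0.05. Acsf2 at 1.14 and Eci1 at -0.92 are the extremes for the strains, and Acot13 at 0.44 and Cpt1c at -0.41 for F1 minus the mean of the parents.

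Among the synthetases that activate fatty acids, Acsf2, a mitochondrial medium-chain enzyme on chr11:94418416-94463100 (mm9; minus strand, 16 exons), had the greatest strain difference of any member on the log2(RPKM + 1) scale; as a ratio of mean RPKM, Bdh1 differed more. Its level was 59.0, 68.7 and 57.4 RPKM in the B6 libraries, 135, 143 and 133 in 129, and 106, 103 and 109 in F1. The 3 groups do not overlap, and F1 lies between its parents. Acsf2 was 2.22 times as high in 129 as in B6, a log2 difference of 1.14 (SE 0.06, limma adjusted p = 3.24e-07). Of its transcript sequence, 33.3% of the 50-base words also occur in the processed pseudogene Gm5540 on another chromosome, and how reads matching both were counted is not given in the sources used here. Acsl3, Acsl4 and Acsl5, which activate long-chain acids, and Acsf3, which activates malonate, did not pass for the strains. Their log2 differences were -0.07, -0.09, 0.11 and 0.07. Acsl5 passed under the other scaling and without 129 replicate 2 (0.14 to 0.16). Acsl3 shares 10.6% of its exon bases with the same-strand row Utp14b, at 2.29 RPKM in B6, 1.12 in 129 and 1.53 in F1. The level of all activating members together was 124.1 ± 6.14 RPKM in B6, 200.3 ± 4.5 in 129 and 170.7 ± 2.08 in F1, and Acsf2 made up most of the gap. This sum leaves out Acsl1, a long-chain synthetase that is not a member and stood far higher. Acsl1 was at 1290 ± 70.5 RPKM in B6, 981 ± 29.7 in 129 and 991 ± 41.9 in F1. It was lower in 129 than in B6, by -0.39 (limma adjusted p = 0.000567), so the sum does not give the level of fatty acid activation as a whole.

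For carnitine entry, Slc22a5, the plasma membrane carnitine importer (chr11:53678044-53705205, mm9), was 10.6, 11.2 and 11.3 RPKM in B6, 15.0, 15.1 and 15.3 in 129, and 15.1, 14.3 and 14.8 in F1. The 129 libraries all lay above B6, and F1 overlapped 129. The log2 difference between the strains was 0.42 (SE 0.04, adjusted p = 1.46e-05), and between F1 and 129 it was -0.04, which did not pass. Slc22a5 shares 26.1% of its 50-base words with its neighbour Slc22a21. Cpt2, the inner-membrane transferase, was lower in 129 by a log2 difference of -0.16 (adjusted p = 0.0287), but this call was lost without B6 replicate 1 or 3, without 129 replicate 1 or 2, and under the other scaling (-0.15 to -0.13). Cpt1a, at 0.14 in 129 relative to B6, did not pass; it passed without B6 replicate 1 and under the other scaling (0.17 to 0.18). Crat, which makes acetylcarnitine, and Mlycd, which removes the entry inhibitor malonyl-CoA, were both at -0.06 and did not pass.

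The acyl-CoA dehydrogenases hold the first step of each cycle, and here they split. Acadm, the medium-chain enzyme on chr3:153585317-153607607 (mm9; 12 exons), was 579, 528 and 611 RPKM in B6, 348, 345 and 362 in 129, and 496, 472 and 474 in F1. It was 1.63 times as high in B6 as in 129 and differed by -0.70 on the log2 scale (SE 0.06, adjusted p = 6.42e-06). Acadl, the long-chain enzyme (chr1:66877413-66909883), was 478, 421 and 484 RPKM in B6, 330, 316 and 335 in 129, and 402, 384 and 386 in F1. Its strain difference was -0.49 (SE 0.06, adjusted p = 8.56e-05). For both genes the B6 libraries were highest, the 129 libraries lowest and the F1 libraries between, with no overlap. Acad11, which acts on longer chains and lies at chr9:103966033-104029976, followed the same order with 66.0, 59.6 and 63.1 RPKM in B6, 50.2, 48.9 and 50.2 in 129, and 56.5, 54.4 and 57.1 in F1. It differed by -0.33 (SE 0.04, adjusted p = 0.000174).

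Acadvl, the very-long-chain enzyme, and Acads, the short-chain one, were also lower in 129, at -0.22 and -0.21 (adjusted p = 0.0244 and 0.0307). Both calls were lost without B6 replicate 1, B6 replicate 3, 129 replicate 1 or 129 replicate 2 and with no filter on low values, and that of Acads also without 129 replicate 3 and under the other scaling (-0.23 to -0.17 over the settings in which they were lost). On the other side stood the lower-abundance dehydrogenases. Acad10 (chr5:122071038-122110519, mm9) was 4.54, 4.19 and 4.46 RPKM in B6, 7.16, 7.51 and 6.60 in 129, and 7.64, 7.36 and 7.27 in F1, a strain difference of 0.58 (SE 0.05, adjusted p = 1.02e-05). The F1 libraries overlapped 129 and lay above B6. Acad9, also an assembly factor of respiratory complex I, was higher in 129 by 0.21 (adjusted p = 0.0102). Acad12 was higher by 0.20 (adjusted p = 0.0262), a call lost without B6 replicate 1 or 2 or 129 replicate 2 or 3 (0.16 to 0.20). Acad10 and Acad12 lie 2091 bases apart and share sequence, 16.8% of the 50-base words of Acad10 and 15.7% of those of Acad12, so reads could be split between them. Summed over the 8 dehydrogenases the level was 1791 ± 136 RPKM in B6, 1336 ± 35.6 in 129 and 1626 ± 42.1 in F1.

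For hydration to thiolysis the strains differed less. Hadha and Hadhb, the subunits of the trifunctional protein that carries out the later steps for long chains, start 273 bases apart on opposite strands of chr5. Hadhb was 541, 514 and 547 RPKM in B6, 569, 560 and 597 in 129, and 684, 650 and 667 in F1, and Hadha 285, 266 and 289, then 293, 289 and 306, then 329, 311 and 321. For both genes, every 129 library lay above every B6 library, though for Hadha the nearest values both round to 289 RPKM. Neither gene passed between the strains (0.11 and 0.08 for Hadhb and Hadha). Of the 50-base words of Hadhb, 18.1% also occur in the pseudogene Gm13910. Hadh, the medium- and short-chain hydroxyacyl dehydrogenase, was at -0.06 and did not pass. Acaa2, the mitochondrial thiolase, was higher in 129 by 0.21 (adjusted p = 0.0214), a call lost without B6 replicate 2, 129 replicate 2 or 129 replicate 3 (0.16 to 0.21).

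Among the auxiliary enzymes for unsaturated bonds, Eci1, an enoyl-CoA isomerase on chr17:24563628-24576261 (mm9; 7 exons), was 202, 192 and 216 RPKM in B6, 103, 107 and 111 in 129, and 169, 164 and 158 in F1. The groups did not overlap. Eci1 was 1.90 times as high in B6 as in 129, with a log2 difference of -0.92 (SE 0.05, adjusted p = 3.85e-07), the greatest fall among the members on this scale. Decr1, the dienoyl-CoA reductase (chr4:15844387-15872654), was 175, 164 and 177 RPKM in B6, 130, 120 and 130 in 129, and 165, 153 and 151 in F1. It differed by -0.44 (SE 0.05, adjusted p = 8.56e-05), and F1 overlapped B6 but not 129. Eci2, a second isomerase also found in peroxisomes, was at 0.08 and did not pass.

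All 3 electron-transfer members were lower in 129. The values were -0.18 for Etfa, -0.24 for Etfb (the subunits of the flavoprotein) and -0.23 for Etfdh, its ubiquinone oxidoreductase, with adjusted p of 0.0091, 0.0301 and 0.00391. The call of Etfb was lost without B6 replicate 1 or 3, without 129 replicate 1 or 2, with no filter on low values, and under the other scaling (-0.24 to -0.18). Their summed level was 900.8 ± 45.2 RPKM in B6, 773.4 ± 22.5 in 129 and 939.8 ± 46.5 in F1.

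The thioesterases, which release free acids from coenzyme A, had mixed directions. Acot1, a cytosolic form, was 1.58, 1.41 and 1.55 RPKM in B6, 0.998, 0.834 and 1.19 in 129, and 0.987, 1.53 and 1.24 in F1, with F1 overlapping both parents. Its strain difference was -0.33 (SE 0.10, adjusted p = 0.0213), from 37 to 127 reads a library. At this low level the pseudocount shrinks the value: it was -0.55 with a pseudocount of 0.1 and -0.62 by voom on reads recovered from the RPKM values. The call was lost without B6 replicate 1 or 3 or 129 replicate 1 or 2 (down to -0.26). Acot2, the mitochondrial form next to it, was higher in 129 by 0.20 (adjusted p = 0.0163), a call lost without B6 replicate 1 or 3 or 129 replicate 2 or 3 (0.15 to 0.18). The 2 genes share 13.6% of the 50-base words of Acot1 and 24.5% of those of Acot2. Acot13, at -0.13 in 129, did not pass (adjusted p = 0.0573), though it passed without F1 replicate 1 or 3.

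For coenzyme A and ketone bodies, Bdh1, which interconverts the ketone bodies (chr16:31422383-31458987, mm9), was 0.982, 0.721 and 1.08 RPKM in B6, 2.14, 2.03 and 2.32 in 129, and 1.04, 1.07 and 0.908 in F1. The 129 libraries stood alone, and F1 overlapped B6. The strain difference was 0.72 (SE 0.08, adjusted p = 4.93e-05). It was 1.15 with a pseudocount of 0.1 and 1.20 by voom, and the ratio of the mean RPKM was 2.33. Pank1, a pantothenate kinase that sets coenzyme A synthesis (chr19:34881426-34953945), was 5.20, 3.81 and 5.19 RPKM in B6, 3.37, 3.27 and 3.13 in 129, and 3.40, 3.19 and 3.76 in F1. Its difference was -0.42 (SE 0.09, adjusted p = 0.0052), and B6 replicate 2 lay nearest to the 129 libraries. Pank2 and Pank3, the other kinases, were at -0.13 and -0.03 and did not pass, although Pank2 passed without B6 replicate 2 and by voom (-0.15). Pank2 shares 16.4% of its exon bases with Rnf24 on the opposite strand. Rnf24 was at 12.1 RPKM in B6, 9.08 in 129 and 9.96 in F1, and the strand setting of the counts is not known.

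**Figure D3:**
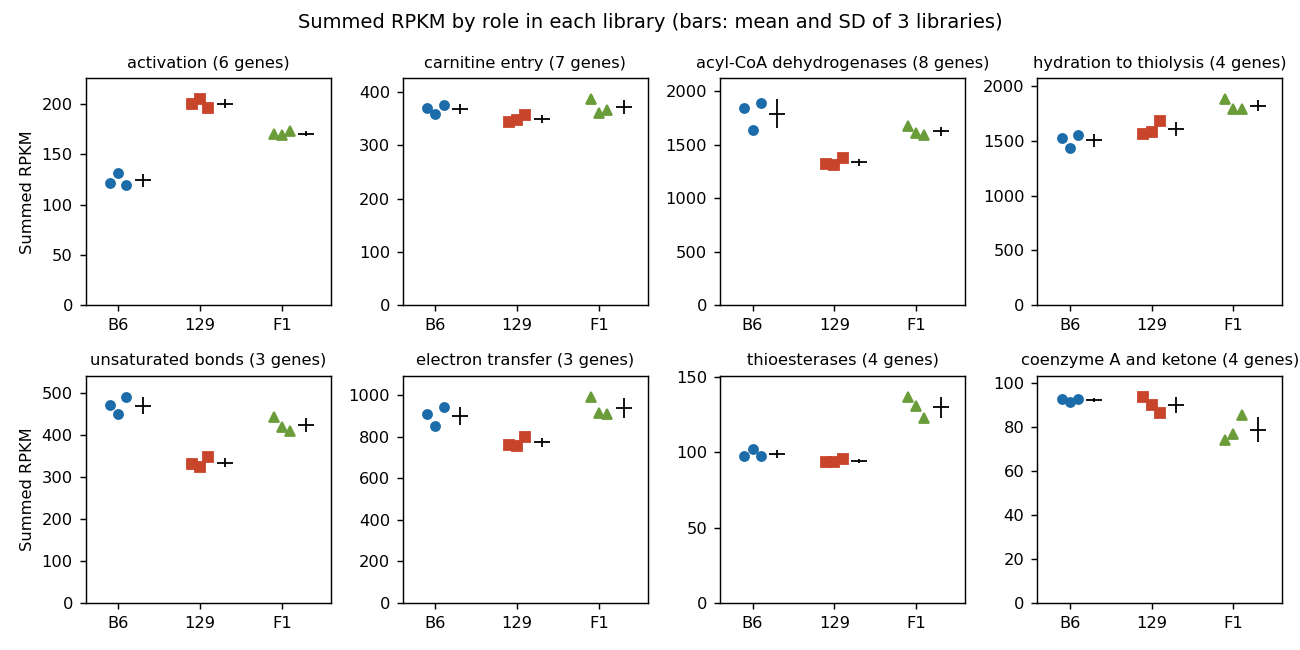
Summed RPKM of the members of each role in each library, with a point for each library and the group mean and SD as a dash with error bars. Dehydrogenases and unsaturated-bond enzymes are lowest in 129, and thioesterases and hydration-to-thiolysis enzymes highest in F1. The activating members, which do not include the more abundant Acsl1, are highest in 129.

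In F1 the levels were compared with each parent and with the mean of the parents on the log scale, the mid-parent. These comparisons share libraries, so their values are given side by side. Where the parents differ, the mid-parent lies below the plain mean of their RPKM. Relative to the mid-parent, 11 members were higher in F1, 4 lower and 21 did not pass, while among all genes 8.35% were higher and 14.8% lower. The higher members included the trifunctional protein, the thiolase, Etfa and the thioesterases Acot2 and Acot13, and the lower ones were Cpt1a, Cpt1c, Pank3 and Bdh1. The median difference was 0.09 for the members and -0.03 for all genes. All 3 F1 libraries lay above all 6 parental ones for 7 members and below them for 3, against 5.72% and 9.7% of all genes. The F1 mean lay between the parental means for 15 members (41.7%, and 41.4% of all genes), above both for 17 (47.2%, and 22.5% of all genes) and below both for 4 (11.1%, and 36.0% of all genes). Under the median-of-ratios scaling the members' counts were 12 higher and 4 lower, while all genes went from 964 higher and 1712 lower to 1298 and 1348.

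Cpt1a (chr19:3323301-3385733, mm9; 19 exons) was 13.4, 12.0 and 12.1 RPKM in B6, 14.9, 13.2 and 13.4 in 129, and 9.73, 10.4 and 10.2 in F1. The F1 libraries all lay below the 6 parental ones, and the difference from the mid-parent was -0.35 (SE 0.05, adjusted p = 0.0008). Cpt1c, a form studied mostly in brain (chr7:52214742-52230221), was 10.9, 11.5 and 10.0 RPKM in B6, 10.5, 10.8 and 10.9 in 129, and 8.01, 8.30 and 7.38 in F1, again with F1 lowest in every library. It differed from the mid-parent by -0.41 (SE 0.05, adjusted p = 0.000344). Slc22a5, the importer, was higher than the mid-parent by 0.17 (adjusted p = 0.00543). Cpt2, at 0.11, did not pass.

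Acaa2, the thiolase, was 388, 363 and 387 RPKM in B6, 411, 437 and 470 in 129, and 548, 518 and 499 in F1. Every F1 library lay above all parental ones, and the difference from the mid-parent was 0.35 (SE 0.05, adjusted p = 0.00118). Hadhb was above by 0.27 and Hadha by 0.15 (adjusted p = 0.00199 and 0.0258), and the call of Hadha was lost without 129 replicate 1 or 2 or F1 replicate 1 or 3 (0.13 to 0.15). Etfa (chr9:55302243-55360050) was 311, 304 and 305 RPKM in B6, 267, 266 and 278 in 129, and 380, 354 and 363 in F1, a difference of 0.34 (SE 0.04, adjusted p = 0.000229). Its partner Etfb, at 0.11, did not pass.

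Among the dehydrogenases, Acad10 was above the mid-parent by 0.35 (SE 0.05, adjusted p = 0.000496), with F1 overlapping 129. Acad12 (chr5:122048290-122068947) was 5.43, 5.26 and 5.57 RPKM in B6, 5.89, 6.86 and 6.41 in 129, and 7.01, 8.10 and 7.64 in F1. It was above by 0.32 (SE 0.05, adjusted p = 0.00226), and no F1 library reached down to a parental one. Acadvl and Acadm were at 0.13 and 0.10 and did not pass.

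Acot13, a thioesterase often found with mitochondria (chr13:24909824-24923358), was 77.8, 80.0 and 77.3 RPKM in B6, 71.6, 70.5 and 72.0 in 129, and 109, 102 and 94.9 in F1. Its difference of 0.44 (SE 0.04, adjusted p = 0.000108) was the greatest rise of any member against the mid-parent on the log2(RPKM + 1) scale. Acot2 (chr12:85328811-85334825) was 17.5, 20.2 and 18.1 RPKM in B6, 20.4, 22.0 and 21.9 in 129, and 26.2, 26.4 and 26.2 in F1, a difference of 0.38 (SE 0.05, adjusted p = 0.000381). For both, the F1 libraries lay above every parental one. Acsf2 and Eci1 were above the mid-parent by 0.21 and 0.15 (adjusted p = 0.0223 and 0.0412), and Decr1, at 0.08, did not pass. Relative to the plain mean of the parental RPKM, the F1 mean was only 1.07 times as high for Acsf2 (106 against 99.3). For Eci1 it was 1.05 times as high (164 against 155). Part of their rise therefore comes from the log scale. The call of Acsf2 was lost without F1 replicate 1 or 3 (0.19 to 0.21), and that of Eci1 without B6 replicate 1, 129 replicate 1 or 2, or any F1 replicate and with no filter on low values (0.12 to 0.17). Pank3 was below by -0.22 (adjusted p = 0.0106), which was lost without F1 replicate 1 (-0.18). Bdh1 was below by -0.30 (SE 0.07, adjusted p = 0.0113), -0.46 with a pseudocount of 0.1 and -0.51 by voom, and the call was lost without F1 replicate 3 (-0.27).

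**Figure D4:**
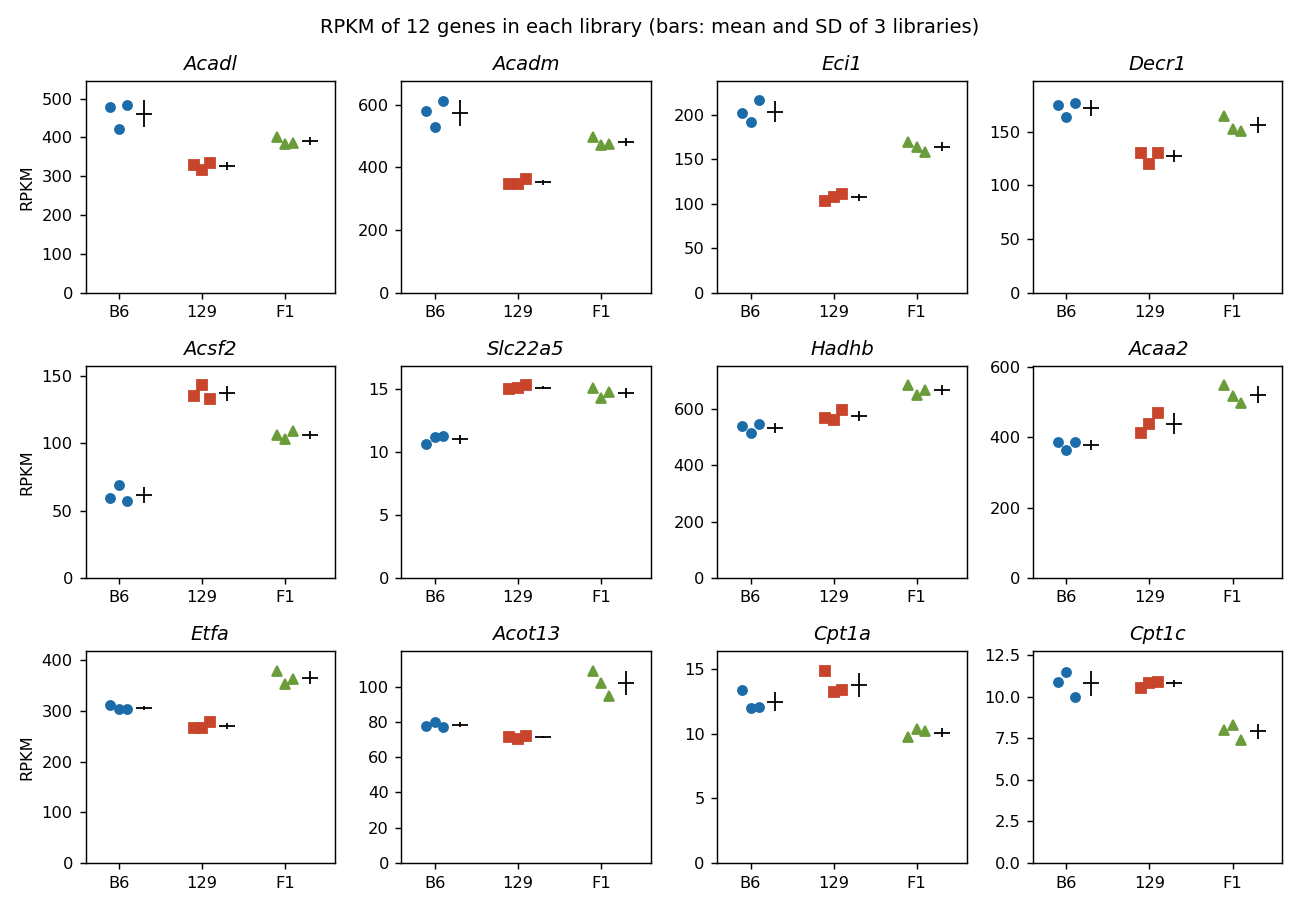
RPKM of selected members in each library, with a point for each replicate and the group mean and SD (n = 3) beside them. Eci1 and Acadm show F1 between the parents, Acot13 and Acaa2 show F1 above both, and Cpt1a shows F1 below both.

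Against each parent, 10 members were higher and 8 lower in F1 than in B6 (11.0% and 20.2% of all genes), and 14 were higher and 7 lower than in 129 (12.0% and 15.7% of all genes). The medians were 0.02 against -0.04 for all genes, and 0.12 against -0.01. Under the other scaling all genes went from 1270 higher and 2329 lower than B6 to 1735 and 1753, and the members to 11 and 7. Leaving out B6 replicate 1 left 5 members lower than B6, and 1622 of all genes. Leaving out 129 replicate 1 left 9 members higher than 129, and 935 of all genes, against 1387 with every library. Leaving out 129 replicate 1, F1 replicate 1 or F1 replicate 2 left 4 members lower than 129. Among all genes these fits left 1303, 1473 and 1533 lower, against 1813 with every library. Eci1 was 1.53 times and Acadm 1.37 times as high in F1 as in 129, with log2 differences of 0.61 and 0.45 (adjusted p = 2.22e-05 and 0.00035), and they were below B6 by -0.31 and -0.25 (adjusted p = 0.00143 and 0.00897). Acadl was between as well, at 0.26 above 129 and -0.24 below B6 (adjusted p = 0.00924 and 0.0126); the second was lost without B6 replicate 1 (-0.21). Acadvl and Cpt2 were above 129 by 0.24 and 0.18 and at 0.02 and 0.03 against B6, and the calls against 129 were lost without 129 replicate 1 or 2 or F1 replicate 1 (0.15 to 0.24), that of Acadvl also without F1 replicate 2 and with no filter. Bdh1 was below 129 by -0.66 (adjusted p = 0.00021; -1.04 with a pseudocount of 0.1 and -1.11 by voom) and at 0.06 against B6.

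A further 48 genes of fatty acid and ketone metabolism and its regulation, listed with earlier results of these data known, gave 46 tested genes. In 129 relative to B6, 7 of these were higher and 20 lower, with a median of -0.12, against 15.9% and 21.7% of all genes and their median of -0.03. Relative to the mid-parent 11 were higher in F1 and 5 lower, with a median of 0.05, against 8.35% and 14.8% of all genes and their median of -0.03. The smallest p-values among the lower genes were those of Decr2, the peroxisomal dienoyl-CoA reductase (-0.76, SE 0.04, adjusted p = 3.24e-07), Acss3, a mitochondrial short-chain synthetase (-0.73, adjusted p = 1.47e-05), and Acot7, a thioesterase (-0.43, adjusted p = 2.46e-05). Among the higher genes were Oxct1, which is needed to use ketone bodies (0.41, adjusted p = 0.000117), and the thioesterase Acot9 (0.24, adjusted p = 0.000371).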

How the data were processed

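Poly(A) RNA libraries were made with a stranded mRNA kit, per the labels' protocols, and aligned with STAR to mm9, per the submitters' processing notes. No source used here gives the counting tool, annotation, strand setting or software versions. The authors deposited 1 table of RPKM values for each of the 9 libraries. Low values were whole multiples of 1 read within 0.1 read, which gave each library's depth. Log2(RPKM + 1) was fitted with limma 3.58.1 in R 4.3.3, with a trended variance and 1 mean per group over all 9 libraries, for genes with at least 1 RPKM in at least 3 libraries. Adjusted p-values are Benjamini-Hochberg over 11542 genes, with a threshold of 0.05, and fold changes on this scale understate those of low genes. The script was tested on simulated data.

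The members and all gene lists were chosen with earlier results of these data known. A member has its value in every library, its SE and its adjusted p where it passed with a log2 difference of at least 0.3 in size, between the strains without overlap or between F1 and the mid-parent. Other members are given more briefly, and from the list of further genes those with the 3 smallest p-values in each direction are named, except 1 that is not reported here. Coordinates are mm9, from the deposited tables, except those of the RefSeq promoters (GRCm38.p6). Shared 50-base words were counted in GENCODE M21 transcripts. Alternatives were the pseudocount (0.1), no filter or one of 5 RPKM, median-of-ratios rescaling, a replicate block, leaving out each library, and voom on recovered reads.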

Additional observations from a re-analysis of the deposited data

How the results depend on the processing

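Over all alternatives run, 1119 values of called members were recomputed; 1012 stayed past the threshold, 107 did not and 0 changed sign. Of 1029 values of members without a call, 24 passed and 51 had the other sign. Among the differences without a call that the text gives, Pank3 between the strains had the other sign under median-of-ratios rescaling (0.01). Leaving out single libraries changed the sign of 5 of them, with ranges of -0.0 to 0.11 for Acsf3 and -0.06 to 0.01 for Pank3 between the strains, and of -0.01 to 0.05 for Cpt2, -0.06 to 0.06 for Acadvl and -0.02 to 0.12 for Bdh1 in F1 against B6. Those libraries were B6 replicate 2 for Acsf3, Cpt2, Acadvl and Bdh1, 129 replicate 3 for Pank3, and also F1 replicate 1 for Cpt2. Leaving out each library gave 5 to 8 higher members and 8 to 14 lower ones for 129 against B6, 10 to 10 and 5 to 10 for F1 against B6, 9 to 17 and 4 to 7 for F1 against 129, and 8 to 12 and 3 to 6 for F1 against the mid-parent. Counts over all genes moved too, from 1553 to 1870 higher and 1960 to 2617 lower for 129 against B6. They were 975 to 1315 and 1622 to 2418 for F1 against B6, and 935 to 1543 and 1303 to 1985 for F1 against 129. Against the mid-parent they were 642 to 1084 and 1117 to 1964. Replicate numbers did not pair the libraries: deviations of same-numbered libraries correlated at -0.192 to 0.215. A fit with the replicate number as a block called 8 higher and 13 lower members for 129 against B6, 10 and 8 for F1 against B6, 13 and 6 for F1 against 129, and 10 and 4 for F1 against the mid-parent. The block ended the call of Eci1 against the mid-parent and those of Acad9 and Etfb between F1 and 129. Voom was chosen after seeing the data. Count tests planned with edgeR and DESeq2 were not run, since the values are RPKM. Among tested members, Acot1 and Bdh1 had the fewest reads, with as few as 37 and 46 reads in a library.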
